A study of Homo sapiens with 12 samples.

Results

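Microexons, cassette exons of 3 to 27 nt, were followed in 2 tables of splicing counts from PC3E and GS689 cells. Each event of the tables is a middle exon with the 2 splice sites that flank it, and an event was taken as a member when its exon length, read from the coordinates of the event, was 3 to 27 nt. This rule read exon length only, although it was chosen with earlier results of these data known. The RNA-seq table held 1164 such events of 818 exons among 114816 events, and the targeted RASL-seq table held 36 among 2023. All 36 lay on the plus strand and were 20 to 27 nt long, so the shortest microexons were seen by RNA-seq only.

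GS689 (GS689.Li) and PC3E both descend from the human prostate cancer line PC3. GS689 has a mesenchymal and PC3E an epithelial character. Both lines were labelled wild type, grown in DMEM/F12 with FBS, non-essential amino acids and G418, plated on 10 cm dishes and harvested after a night, and neither received a treatment. Each line had 3 libraries per assay, and the labels do not say whether these came from separate cultures, so the p-values below measure the spread between these libraries only. RASL-seq ligates paired probes that meet at a splice junction and counts the ligated products. The RASL-seq columns name the line. The RNA-seq header names only set 1 and set 2, so RNA-seq results are given as set 2 against set 1 and no line is assigned to a set.

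Microexons are so short that the spliceosome has difficulty in recognising both of their ends at the same time. Many are included mainly in neurons, where the factor SRRM4 recruits the splicing machinery to them, and when coding they often add a few amino acids at the surface of a protein domain without shifting the reading frame. Epithelial and mesenchymal cells are also known to differ in cassette exons, among them exons controlled by the ESRP proteins.

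The sequences below are the microexons on which the results turn, chosen to show the 3 exons measured in both assays with large differences, the look-alike exons of related genes, and the shortest exons. Each is shown as spliced RNA, written as DNA from 5′ to 3′: the capitals mark the microexon, and the lower case letters are the 10 nt of the neighbouring exon on each side. They come from GENCODE release 29 transcripts (GRCh38), matched by structure. The positions given further on are those of the tables (hg19).
USO1: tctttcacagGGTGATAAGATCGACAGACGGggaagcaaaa
MYO6: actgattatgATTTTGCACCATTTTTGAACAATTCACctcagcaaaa
PTPRF: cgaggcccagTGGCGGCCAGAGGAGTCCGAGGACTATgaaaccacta
PICALM: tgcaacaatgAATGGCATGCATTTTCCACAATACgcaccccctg
MACF1: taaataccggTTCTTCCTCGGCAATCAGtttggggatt
DST: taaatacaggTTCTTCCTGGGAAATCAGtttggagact
DNM2: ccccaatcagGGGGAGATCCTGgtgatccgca
DNM1: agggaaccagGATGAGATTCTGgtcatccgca
TEAD1: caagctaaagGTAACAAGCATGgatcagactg
AP1B1: cagctgcacgGACTTAGAGctgtccctga
NSFL1C: aaggccagagGAGCAGgttttatgct
CLASP2: tcatggcaagAGAgtattcagca
ABCA2: gtgaaggaagTCTccttctacac

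RASL-seq libraries held 615758 to 954120 counts, of which 8010 to 14054 were in microexon events. RNA-seq libraries held 93842790 to 120853566 event counts, a read being able to count in several events, and microexons took 0.708 to 0.819% of them. The labelled characters of the lines showed in RASL-seq, where VIM, a mesenchymal filament gene, had a CPM of event counts of 4188 to 4287 in GS689 against 172 to 209.6 in PC3E. LSR, a gene of epithelial tricellular junctions, had 0 to 3.25 CPM in GS689 against 83.4 to 99.0 in PC3E. In RNA-seq, library 2 of set 1 stood apart. Its microexon counts differed from those of libraries 1 and 3 by a chi-square per degree of freedom of 17.9 and 13.3, against 2.80 between those 2 libraries, and within set 2 the values were 2.21 to 3.57. Over all events the same comparison gave 4.27 and 3.502, against 2.23. That library had the highest inclusion of its set in 201 of 412 microexons. Among microexons of 10 to 90% inclusion it lay 2.55 points above the mean of the other libraries of its set in the median. It also lay 1.27 points above that mean among exons of 28 to 50 nt, and 0.25 points below it among exons over 50 nt. In RASL-seq, PC3E replicate 2 stood apart (4.79 and 3.52 over all events, against 1.90).

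Inclusion is the percentage of transcripts of an event that carry the exon. A microexon was tested when its event averaged 10 or more counts per library, had no library without counts, and its rarer form reached 10 counts in all. A change was called at a quasi-binomial F test with Benjamini-Hochberg adjusted p under 0.05, adjusted over all tested events, and a difference in mean inclusion of 5 points or more. In RASL-seq 17 of the 36 microexons were tested and 3 were called, all lower in GS689, against a background of 5.87% of all 1124 tested events called in either direction with 2.22% higher and 3.65% lower. The libraries of the 2 lines did not overlap in 8 of the 17, against 23.6% of all tested events.

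USO1 tethers transport vesicles to the Golgi, and its microexon of 21 nt (chr4:76716489-76716509, plus strand, coding) had the widest difference. It was included at 3.68, 1.65 and 1.72% in GS689, against 78.6, 81.1 and 78.1% in PC3E. The mean was 2.35 ± 1.15% in GS689 and 79.3 ± 1.58% in PC3E (SD, n = 3 each), a difference of -76.9 points (quasi-binomial adjusted p = 3.01e-11). The exon was therefore the minor form in all 3 GS689 libraries and the major form in all 3 PC3E libraries, with 549 to 1153 counts behind each value.

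MYO6 encodes the myosin that walks towards the minus end of actin filaments. Its microexon of 27 nt (chr6:76621389-76621415, plus strand, coding) was included at 0, 0 and 2.68% in GS689, against 33.2, 50.7 and 33.7% in PC3E, a difference of -38.3 points (quasi-binomial adjusted p = 0.00164). The GS689 replicates 1 and 2 had 0 inclusion counts of 155 and 173, which allows shares of up to 1.94 and 1.73%. PC3E replicate 2, the library that stood apart, gave the highest value, and the difference without it was -32.6 points.

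PTPRF encodes the receptor tyrosine phosphatase LAR. Its microexon of 27 nt (chr1:44067742-44067768, plus strand, coding) was included at 6.98, 12.2 and 3.92% in GS689, against 40.4, 30.6 and 42.9% in PC3E, a difference of -30.3 points (quasi-binomial adjusted p = 0.00212). Only 41 to 133 counts lay behind each value, and the lines did not overlap. The limits given for 0 counts, here and below, cover counting error only.

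**Figure D1:**
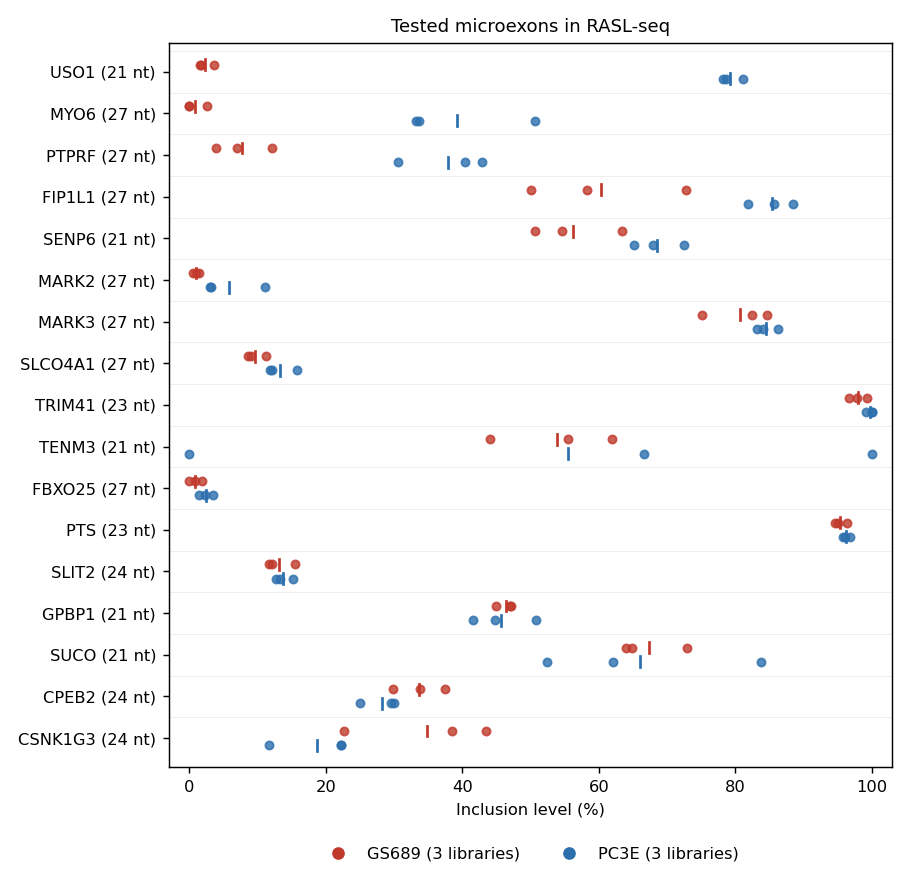
Inclusion level in percent (horizontal axis) of the 17 microexons tested in RASL-seq, 1 row per exon with its length, ordered by the difference between lines. Red points are the 3 GS689 libraries, blue points the 3 PC3E libraries and short bars the means. USO1, MYO6 and PTPRF have no overlap between the lines, with differences of -76.9, -38.3 and -30.3 points.

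The other 14 tested microexons did not pass. FIP1L1, a subunit of the polyadenylation machinery, was included at 50, 58.3 and 72.7% in GS689, against 81.8, 85.7 and 88.5% in PC3E (quasi-binomial adjusted p = 0.158), with 8 to 26 counts per library. SENP6, a SUMO protease, had 50.6, 63.3 and 54.5% in GS689, against 65.1, 72.5 and 68.0% in PC3E (quasi-binomial adjusted p = 0.0789). MARK2, a kinase of microtubule-associated proteins, had 1.40, 0.518 and 1.07% in GS689, against 11.1, 3.08 and 3.23% in PC3E (quasi-binomial adjusted p = 0.106). In these 3 exons the lines did not overlap although the test was not passed. The same held for SLCO4A1, at -3.70 points (quasi-binomial adjusted p = 0.394), and for CSNK1G3, which went the other way. CSNK1G3 had 22.7, 43.5 and 38.5% in GS689, against 22.2, 11.8 and 22.2% in PC3E. Its difference was 16.2 points (quasi-binomial adjusted p = 0.363), on 9 to 23 counts per library. SENP6 passed when GS689 replicate 2 was left out, with a difference of -15.98 points and a quasi-binomial adjusted p of 0.0334. MARK2 passed when PC3E replicate 2 was left out, with a difference of -6.17 points and a quasi-binomial adjusted p of 0.0217. GPBP1, with 252 to 621 counts per library, had 47.0, 47.2 and 44.98% in GS689, against 44.8, 41.5 and 50.8% in PC3E, and the lines overlapped. The exon of PTS, an enzyme of tetrahydrobiopterin synthesis, was above 94% in every library of both lines. Of the 19 microexons not tested, 7 had a mean under 10 counts and 12 had too few counts of the rarer form, such as PAICS, an enzyme of purine synthesis, with 0 inclusion counts of 3094 to 8146 in every library.

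In RNA-seq 534 microexon events of 431 exons in 381 genes passed the filter. The change between the sets was called in 53 of them (9.93%), against 3.74% of all 40375 tested events. Of these, 26 were higher in set 2 (background 1.64%) and 27 were lower (background 2.11%). They lay in 47 exons of 45 genes. The libraries of the sets did not overlap in 119 of the 534 events, against 18.8% of all tested events. They did not overlap in 50 of the 53 called microexon events, against 1356 of all 1511 called events. Taking 1 event per exon, that with most counts, 46 of 431 microexons were called, 23 higher and 23 lower. Without library 2 of set 1, 55 of 512 events were called, and 44 of these were among the 53. The share of all events called without that library is not given here, so this count has no background beside it. A count more than 1.5 times smaller was given by 1 alternative, as 15 were called when limma was run on log2 inclusion-to-skipping ratios with a pseudocount of 0.5, against 0.698% of all events under that test.

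The differences among microexons were also wider than over all tested events. The median absolute difference between the sets was 1.85 points over the 534 events and 1.12 points over all tested events. Among called events it was 23.3 points in microexons and 13.3 points in all events. A difference of 20 points or more was seen in 29 of the 53 called microexon events and in 476 of all 1511 called events. The gap was small among exons of 10 to 90% mean inclusion, taking 1 event per exon. There the median absolute difference was 6.31 points in microexons and 5.65 points in longer exons. Microexons of 22 to 27 nt lay below the longer exons in this value, and the shorter microexons lay above them. The part of inclusion level in these differences was not tested.

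The largest fall in set 2 was in USO1. It was included at 4.64, 3.86 and 5.38% in set 2, against 89.8, 92.7 and 89.1% in set 1, a difference of -85.9 points (quasi-binomial adjusted p = 5.04e-234). PICALM assembles clathrin on membranes, and its 24 nt exon (chr11:85689113-85689136, minus strand, coding) had 24.3, 23.4 and 24.98% in set 2, against 93.5, 99.1 and 95.2% in set 1, a difference of -71.7 points (quasi-binomial adjusted p = 5.89e-193). Both exons were the minor form in set 2 and the major form in set 1, with no overlap and a spread of under 6 points within each set. AFDN, which joins nectin receptors to actin at adherens junctions, had 42.7, 42.5 and 33.4% in set 2, against 81.5, 89.9 and 77.1% in set 1 (-43.3 points, quasi-binomial adjusted p = 4.86e-13). PTPRF had 4.60, 3.60 and 3.63% in set 2, against 42.9, 34.7 and 44.9% in set 1 (-36.9 points, quasi-binomial adjusted p = 5.52e-95). AFDN and PTPRF thus also had sets that did not overlap.

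MYO6 had 0 inclusion counts of 119, 192 and 149 in set 2, which allows up to 2.52, 1.56 and 2.01%, against 23.1, 42.9 and 23.5% in set 1 (-29.8 points, quasi-binomial adjusted p = 2.05e-26). Library 2 of set 1 again gave the highest value. DST and MACF1 are spectraplakins, giant proteins that join actin, microtubules and intermediate filaments. DST had 62.1, 57.7 and 63.6% in set 2, against 98.6, 100 and 98.3% in set 1 (-37.9 points, quasi-binomial adjusted p = 1.43e-48). MACF1 had 23.1, 30.7 and 25.1% in set 2, against 54.2, 69.7 and 58.6% in set 1 (-34.5 points, quasi-binomial adjusted p = 4.36e-42). In both spectraplakins the exon was less used in every library of set 2. FNBP1, a membrane-bending F-BAR protein, UGGT1, a folding sensor of the endoplasmic reticulum, and MYO18A, an unconventional myosin, fell by 35.4, 27.05 and 23.3 points. MYO18A rested on 26 to 82 counts per library and lost its call without set 2 library 1, without set 2 library 3 or without set 1 library 3 (quasi-binomial adjusted p = 0.0504, 0.0688 and 0.130).

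Several of the larger rises in set 2 were in exons of 12 nt. DNM1 encodes the dynamin that cuts endocytic vesicles from the membrane and is abundant in neurons. A 12 nt exon of DNM1 (chr9:131002264-131002275, plus strand, coding) had 54.8, 59.3 and 58.4% in set 2, against 12.7, 45.05 and 27.4% in set 1 (29.1 points, quasi-binomial adjusted p = 2.21e-09). This exon thus varied by over 30 points within set 1, with library 2 highest, and the sets did not overlap.

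TEAD1 is a transcription factor that works with YAP. Its 12 nt exon (chr11:12900436-12900447, plus strand, coding) had 65.6, 83.0 and 77.0% in set 2, against 14.5, 21.1 and 19.96% in set 1 (56.7 points, quasi-binomial adjusted p = 8.84e-26). VPS29, a subunit of the retromer that sorts cargo out of endosomes, had 76.0, 64.2 and 70.0% in set 2, against 21.3, 13.3 and 23.1% in set 1 (50.8 points, quasi-binomial adjusted p = 2.87e-15). Neither pair of sets overlapped. ANXA6, a calcium-dependent membrane-binding annexin, had 63.8, 61.1 and 63.3% in set 2, against 25.5, 17.9 and 20.3% in set 1 (41.5 points, quasi-binomial adjusted p = 6.14e-204). FLNA, the actin cross-linker filamin A, had 82.4, 81.5 and 80.3% in set 2, against 53.4, 54.1 and 54.7% in set 1 (27.4 points, quasi-binomial adjusted p = 5.95e-296), on 4033 to 8609 counts. FLNA was thus the most deeply counted of the exons named here among the largest changes. The chromatin reader BAZ2B, glycerol kinase GK, focal adhesion kinase PTK2 and the clathrin adaptor subunit AP1B1 rose by 38.5, 29.3, 25.9 and 25.8 points.

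**Figure D2:**
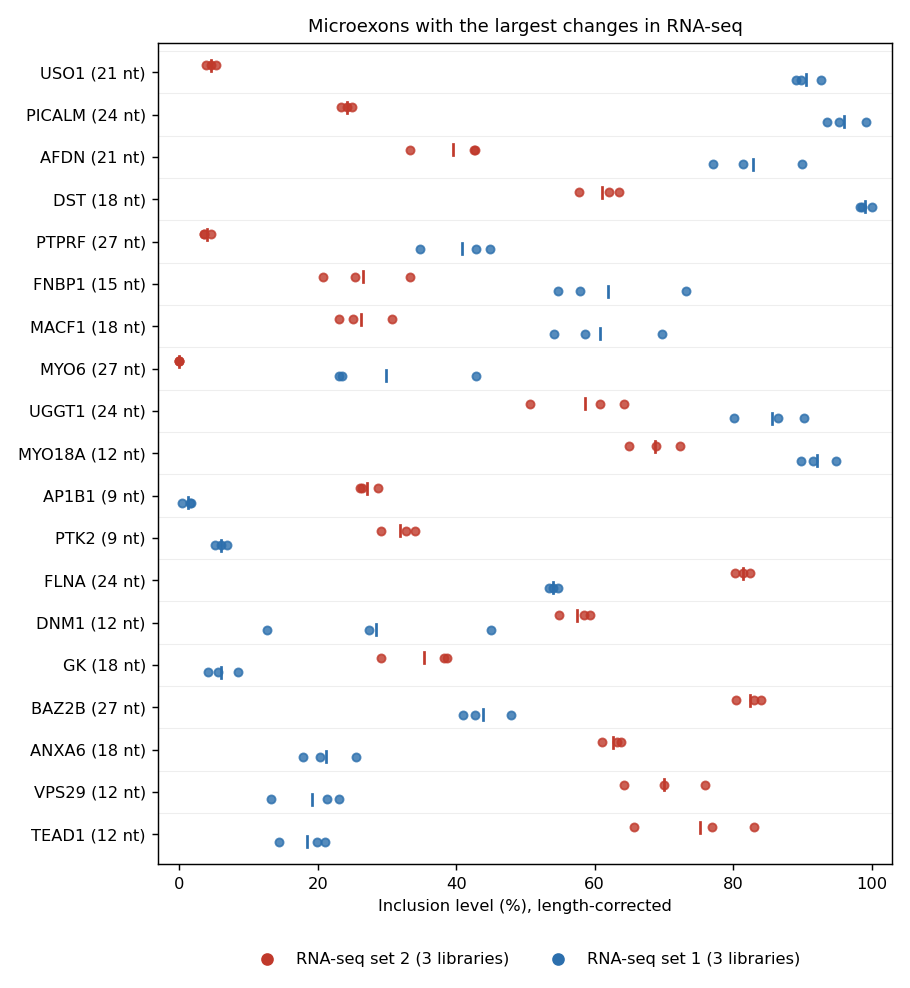
Length-corrected inclusion level in percent (horizontal axis) of the 10 microexons with the largest fall and 9 of the 10 with the largest rise among called exons that averaged 20 or more counts, each exon represented by its event with most counts and shown in 1 row. Red points are the 3 libraries of RNA-seq set 2, blue points the 3 of set 1 and short bars the means. USO1 lies at 3.86 to 5.38% in set 2 and 89.1 to 92.7% in set 1, and TEAD1 at 65.6 to 83.0% and 14.5 to 21.1%.

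The very shortest exons could be followed as well. Of the 14 microexons of 3 nt, which add or remove a single codon when coding, 8 were tested and 2 were called. With 1 event per exon, 10.7% of all tested microexons and 3.61% of all tested exons were called. CLASP2 binds growing microtubule ends, and its 3 nt exon (chr3:33605456-33605458, minus strand) had 77.6, 73.2 and 80.8% in set 2, against 86.6, 91.7 and 94.1% in set 1 (-13.6 points, quasi-binomial adjusted p = 0.00709). ABCA2, a lipid transporter, had 73.7, 88.8 and 94.3% in set 2, against 62.4, 68.7 and 59.3% in set 1 (22.2 points, quasi-binomial adjusted p = 0.0234). The sets did not overlap in either exon, but CLASP2 lost its call without set 2 library 2 or set 1 library 3, and ABCA2 without set 2 library 2, set 2 library 3 or set 1 library 3. The 3 nt exon with most counts, in the mitochondrial channel gene VDAC3, lay between 0.180 and 0.577% in all 6 libraries and did not pass. None of the 3 exons of 4 nt and the single exon of 5 nt was tested.

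Against the same 10.7% of all tested microexons, 1 of the 10 tested exons of 6 nt was called. It lies in NSFL1C, a cofactor of the p97 ATPase (chr20:1436359-1436364, minus strand), with 13.3, 14.8 and 16.8% in set 2, against 5.28, 7.12 and 6.94% in set 1 (8.49 points, quasi-binomial adjusted p = 5.86e-21). The 6 nt exon with most counts was in AP2M1, the cargo-binding subunit of the endocytic AP-2 adaptor. It had 42.4, 41.6 and 41.3% in set 2, against 53.0, 72.8 and 57.3% in set 1, and did not pass (-19.3 points, quasi-binomial adjusted p = 0.204). Without library 2 of set 1, which gave the 72.8%, the difference was -13.4 points and the exon passed (quasi-binomial adjusted p = 1.95e-51). NSFL1C, CLASP2 and ABCA2 are shown for their length, chosen after their values were seen.

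Lengths that are a multiple of 3 were frequent. They made up 505 of the 818 microexons (61.7%), against 39.7% of the 75034 longer exons. Among microexons annotated as coding the share was 68.1% (433 of 636), and among those in untranslated or noncoding sequence it was 34.2% (39 of 114). Of the 47 called microexons 43 had such a length, and 44 were coding. With 1 event per exon, 42 of 290 tested microexons with a length divisible by 3 were called (14.5%), against 4 of 141 others (2.84%). Without library 2 of set 1 these were 44 of 284 and 5 of 133. In longer exons the shares called, with all libraries, were 4.57 and 2.76%. The groups also differed in level, as the median inclusion was 42.4% for tested microexons divisible by 3 and 86.6% for the others. The part of that level in the shares was not tested.

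**Figure D3:**
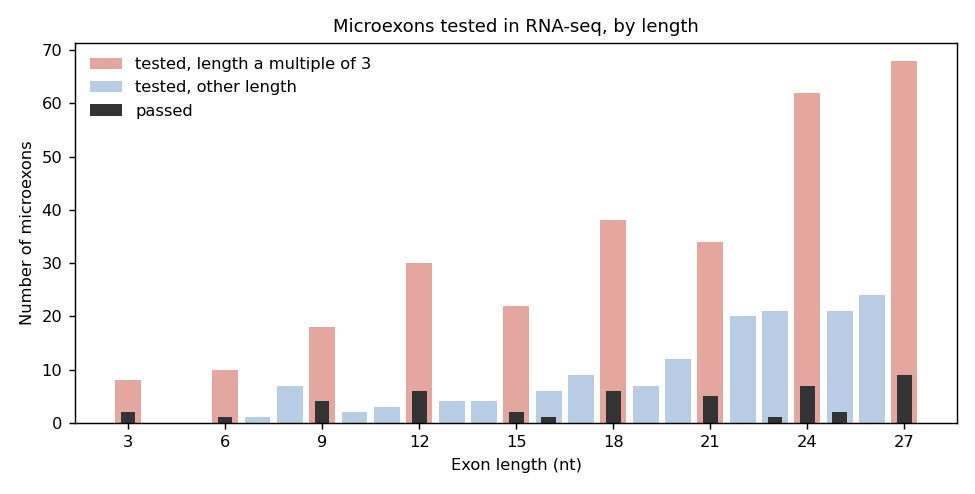
Number of tested microexons (vertical axis) by exon length in nt (horizontal axis), with lengths divisible by 3 in pink and other lengths in light blue. Dark bars count the exons whose event with most counts was called. The tallest bars stand at 24 and 27 nt, and 42 of the 46 exons called in this way have a length divisible by 3.

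Over all inclusion levels, the share of called exons was higher in shorter exons. With 1 event per exon it was 7 of 44 (15.9%) at 3 to 9 nt, 8 of 65 (12.3%) at 10 to 15 nt, 12 of 106 (11.3%) at 16 to 21 nt and 19 of 216 (8.80%) at 22 to 27 nt. It was 5.94% at 28 to 50 nt, 3.69% at 51 to 100 nt, 3.12% from there to 200 nt and 3.45% above. Microexons were also more often of intermediate inclusion, as 177 of 431 (41.1%) had a mean of 10 to 90%, against 24.0% of longer exons. Their median inclusion was 55.7%, against 95.1%. Within the band of 10 to 90% the called share was 41 of 177 microexons (23.2%), against 10.9% of 7601 longer exons. In this band it was 6 of 23 (26.1%) at 3 to 9 nt and 7 of 27 (25.9%) at 10 to 15 nt. It was 11 of 42 (26.2%) at 16 to 21 nt and 17 of 85 at 22 to 27 nt. Within the band the share was thus nearly level from 3 to 21 nt and lower at 22 to 27 nt. The median of the mean counts was 265 per library in microexons and 412 in longer exons. Within the band the order was reversed, at 141 in microexons and 116 in longer exons. These shares are a description and were not tested against each other.

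**Figure D4:**
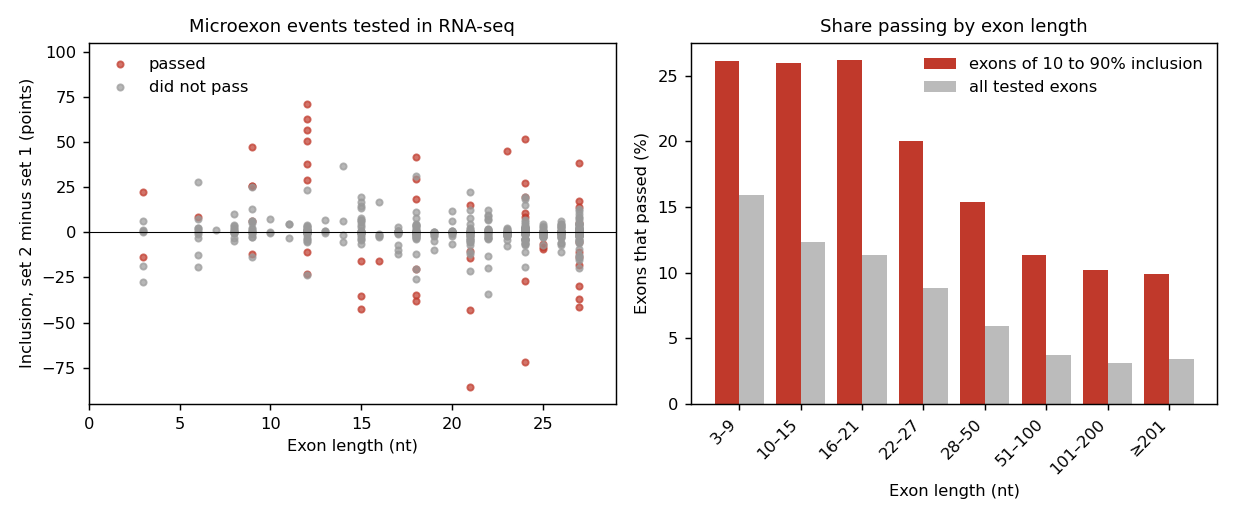
Left, difference of mean inclusion between RNA-seq set 2 and set 1 in percentage points against exon length in nt for the 534 tested microexon events, with called events in red. Right, share of exons called in percent by exon length in nt, in red for exons of 10 to 90% inclusion and in grey for all tested exons; it is 26.1% and 15.9% at 3 to 9 nt and 9.89% and 3.45% above 200 nt.

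The gene groups held few tested microexons each, and their shares are read against 46 of 431 over all tested microexons. Of 10 tested microexons in genes of vesicle traffic and endocytosis, 6 were called, 3 higher and 3 lower in set 2: VPS29, AP1B1 and SNX14 rose, while USO1, PICALM and DNM2 fell. The sorting nexin SNX14 had 50.7, 44.2 and 44.7% in set 2, against 28.3, 28.5 and 30.8% in set 1 (17.4 points, quasi-binomial adjusted p = 1.99e-09). The median difference of the group was -1.95 points, against 0.00 over all tested microexons to 2 decimals. USO1 was known to be changed when the groups were drawn up. All the gene groups, here and below, were drawn up with earlier results of these data known. Their counts of called exons are therefore not independent of these data.

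In genes with known neural microexons, 6 of 25 were called. Of these, 2 were higher, including the DNM1 exon described above, and DST, MACF1, MEF2D and CLASP2 were lower. MEF2D, a transcription factor of muscle and neurons, had 16.4, 16.8 and 12.9% in set 2, against 25.4, 32.7 and 31.1% in set 1 (-14.4 points, quasi-binomial adjusted p = 3.21e-06). Several others were barely included in any library, such as the 12 nt exon of the synapse organiser AGRN at 0.0522 to 0.426%. The 12 nt exon of the receptor phosphatase PTPRS had 77.7, 80.3 and 78.0% in set 2, against 39.3, 74.2 and 51.8% in set 1, and did not pass (23.6 points, quasi-binomial adjusted p = 0.399). Without library 2 of set 1, which gave the 74.2%, its difference was 33.1 points and it passed (quasi-binomial adjusted p = 2.27e-29). It had been singled out after its values were seen. SRRM4 was not analysed here.

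Among 12 tested microexons of receptor phosphatases, adhesion receptors and their partners, 3 were called, all lower in set 2 (PTPRF, AFDN and CD47). The PTPRS exon described above, which is also in this group, passed as higher without set 1 library 2 and without set 1 library 1, by 33.1 and 15.7 points. The third, in the integrin-associated protein CD47, had 10.7, 11.1 and 9.52% in set 2, against 20.01, 10.7 and 20.8% in set 1, and its sets overlapped. A CD47 call was lost without set 2 library 1, set 2 library 3 or set 1 library 3. Among 6 tested in actin and myosin genes, MYO6 and MYO18A fell and the others did not pass. PTPRF and MYO6, like USO1, were markers given before the groups were drawn up. The counts of their groups are not independent of them. Among 3 tested in chromatin and transcription genes, MEF2D fell.

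Related genes can carry look-alike microexons, and 3 pairs with called members were compared, chosen after their values were seen. Capitals now mark the letters that differ within a pair.
MACF1: ttcttcctCggCaatcag
DST: ttcttcctGggAaatcag
MARK2: aaaTCtgtcTttcaggtttGCcaGaag
MARK3: aaaCAtgtcAttcaggtttATcaAaag
DNM2: gGGgagatCctg
DNM1: gATgagatTctg
The MACF1 and DST exons share 16 of 18 letters, and both fell in set 2, by 34.5 and 37.9 points. The MARK2 and MARK3 exons share 21 of 27 letters. MARK2 had 2 tested events, with other flanking exons, which fell by 13.6 and 41.6 points, and MARK3 had 2, at -4.04 and -18.1 points, of which the second was called. That MARK3 call was lost without set 1 library 1, set 1 library 2 or set 2 library 2 (quasi-binomial adjusted p = 0.0534, 0.0585 and 0.173). Without set 1 library 2 the other MARK3 event was called, at -5.07 points (quasi-binomial adjusted p = 0.00532). The DNM1 exon described above and that of DNM2, the dynamin found in most tissues, share 9 of 12 letters but moved in opposite directions. DNM2 had 83.8, 91.1 and 86.3% in set 2, against 97.4, 99.2 and 97.5% in set 1 (-11.0 points, quasi-binomial adjusted p = 6.84e-35), while the DNM1 exon rose by 29.1 points. Whether reads of such pairs were assigned to the wrong gene was not tested. Over the 20907 pairs of same-length microexons from 2 genes, 22 were identical in at least 75% of their letters. Among the 22, DTNB and DTNA were another pair with a called member, sharing 16 of 21 letters. The DTNB exon rose by 15.02 points and was called, while the DTNA exon was at -2.31 points and was not called.

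Of the called exons, 9 had several tested events, and in all 9 every event lay on the same side of 0. TEAD1 had differences of 56.7 and 62.6 points in its 2 events, VPS29 of 38.04 and 50.8 points, FNBP1 of -35.4 and -42.5 points. These events share reads and are not independent.

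Inclusion levels in the 2 assays ranked microexons in a similar way. Over 29 exons that averaged 10 or more RASL-seq counts, the levels averaged over the 6 libraries of each assay had Spearman's rho of 0.90 and Pearson's r of 0.89 across exons, which are not independent replicates. In 5 of them the levels differed by more than 20 points. SLCO4A1, an organic anion transporter with a microexon in untranslated or noncoding sequence, was included at 8.57 to 11.2% in GS689 and 11.9 to 15.8% in PC3E by RASL-seq, whereas its 6 RNA-seq libraries lay at 68.1 to 76.6%. GPBP1, TENM3 and FIP1L1 were higher by RASL-seq, and SUCO was higher by RNA-seq. TENM3 rested on 2 or 3 counts in each PC3E library.

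**Figure D5:**
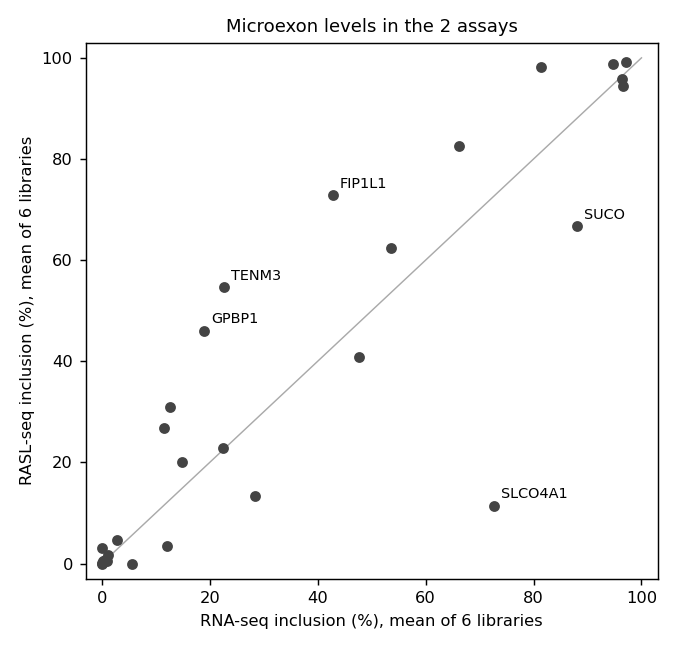
Mean inclusion in percent over 6 libraries by RNA-seq (horizontal axis) and by RASL-seq (vertical axis) for the 29 microexons that averaged 10 or more RASL-seq counts; the line marks equal levels. The 5 labelled exons differ by more than 20 points, and SLCO4A1 lies farthest from the line, at 11.5% by RASL-seq and 72.7% by RNA-seq.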

How the data were processed

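The authors deposited 1 table of splicing events per assay, on hg19. The tools named in the submitters' processing notes are kallisto 0.43.0 and STAR 2.5.2a, with no role given. Per the labels' protocols, Trizol extracts went into TruSeq Stranded Total RNA libraries, although polyA RNA is the labelled molecule. Per the file headers, each RASL-seq cell holds a deposited pair of raw counts. The first was taken as inclusion, because its share correlated with RNA-seq inclusion (r = 0.871 over 1650 events). The RNA-seq table holds deposited inclusion and skipping counts of 2 sets of 3 libraries with effective lengths of 103 to 127 for microexon inclusion and 101 for skipping, and the inclusion level was computed from counts divided by these lengths. No column of per-sample values was left unused.

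Genes were assigned where chromosome, strand, exon length and both intron lengths matched exactly 1 gene of GENCODE release 29; 1112 of 1164 events matched 1 gene, 16 several and 36 none, and no event matched on the opposite strand. Sequences were found for 780 of 818 exons.

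A quasi-binomial logistic model was fitted per event to all events, with dispersions moderated by limma 3.58.1 in R 4.3.3 (squeezeVar, trend on mean count, robust, held at 1 or above), in 3 against 3 libraries. It was tested on simulated data. The share of false calls was 4.32% for RASL-seq with 200 changed events, below the threshold of 0.05. For RNA-seq it was 21.7% with 200 changed events and 8.25% with 2000, above that threshold. The simulation set the spread in the same way for every library and exon length, and these shares are over all events. It did not model the libraries that stood apart, so the share of false calls among microexons is not known from it. Python 3.11.15, pandas 2.3.3, numpy 2.4.6, scipy 1.17.1 and matplotlib 3.10.9 did the rest. Named exons were USO1, MYO6 and PTPRF, those called in RASL-seq, the 10 largest rises and falls among called RNA-seq exons with a mean of at least 20 counts, each by its event with most counts, members of gene groups and the deepest exon of each length from 3 to 6 nt; any further name was picked with its values in view. The exon with the largest of the 10 rises is not reported here, although the counts include it. The members and the gene lists were chosen with earlier results of these data known. Alternatives changed the test, pseudocount, filters, minimum difference, dispersion moderation, length correction and libraries used.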

Additional observations from a re-analysis of the deposited data

How the results depend on the processing

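Counts of called RNA-seq microexon events were 44 to 57 when each library was left out in turn and 45 to 64 under the other filters, minimum differences and dispersions and with a pseudocount of 5, against 53. The shares over all events under these alternatives are not given here. The count was 15 (10 higher, 5 lower) with limma on the log2 ratio and a pseudocount of 0.5, and all 15 were among the 53; AFDN, FNBP1, MACF1, UGGT1, MYO18A, FLNA and the DNM1 exon then had limma adjusted p of 0.0602 to 0.319. With the same test and a pseudocount of 5 the count was 49. In simulated RNA-seq data, limma with a pseudocount of 0.5 found 0% of the 2-fold and 0% of the 4-fold changes. The quasi-binomial model found 4.58 and 18.1% of them with 200 changed events, and 7.69 and 23.4% with 2000. AP2M1 also passed with dispersions moderated without trend and not robustly. The cause was not tested. The VDAC3 difference turned to 0.0663 points without set 2 replicate 2, against -0.0540 with all libraries and a lowest of -0.132 without set 2 replicate 3, and passed nowhere. In RASL-seq, USO1, MYO6 and PTPRF passed under all 15 alternatives, and 3 or 4 microexons were called. SENP6 was the fourth with no filter and with no minimum of the rarer form (quasi-binomial adjusted p = 0.0175 and 0.0297).

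The median inclusion over the 534 tested RNA-seq events was 67.6%. It was 70.6% without length correction, 70.4% with a mean of at least 20 counts and 55.7% with 1 event per exon, and 65.8 to 67.9% when each library was left out; these alternatives were chosen after seeing the data.

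Replicate numbers did not pair the RASL-seq libraries: deviations from the line means of same-numbered libraries correlated at 0.037, 0.0038 and 0.034. With the replicate number as a block, 4 microexons were called, SENP6 being added (quasi-binomial adjusted p = 0.0276). No paired analysis was possible for RNA-seq because the header pairs no libraries of the sets. Of the 630 RNA-seq events not tested, depth limits the 187 with a mean under 10 counts, while 439 had a mean of 10 or more and fewer than 10 counts of the rarer form.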

Other observations

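The CPM of event counts of marker genes differed between the RNA-seq sets, to which no line is assigned. CDH1, the epithelial cadherin, had 0.597, 1.34 and 0.638 in set 2, against 107, 88.4 and 112 in set 1. ESRP1, an epithelial splicing regulator, had 0.149, 0.947 and 0.544 in set 2, against 282, 371 and 339 in set 1. VIM had 1376, 1276 and 1461 in set 2, against 49.97, 62.95 and 64.4 in set 1. FN1, another gene of mesenchymal cells, had 326, 485 and 248 in set 2, against 539, 415 and 569 in set 1, and the sets overlapped. Set 1 library 2 lay with the other libraries of its set in CDH1, ESRP1 and VIM.

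Further exons rose in set 2: that of TBC1D24, which acts in synaptic vesicle cycling, by 18.4 points, of the kinase TNIK by 19.5 points, of the receptor adaptor ARRB1 by 10.5 points and of the dystrobrevin DTNB by 15.02 points. The exons of the lipid phosphatase INPP4A and of TRAPPC13, a subunit of a trafficking complex, fell by 15.9 and 20.5 points. TNIK and TRAPPC13 lost their call without set 1 library 2, and TNIK also without set 2 library 2. ARRB1 lost its call without set 1 library 3 (quasi-binomial adjusted p = 0.0629).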
